A study of Ovis aries with 8 samples.

Results

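VEGFA, the vascular endothelial growth factor, and the endothelial receptor kinases KDR, FLT1 and TIE1 were followed on every probe that names them on an ovine expression array. The 4 genes are among 668 genes named here, and they hold 13 of the 15008 probes of the array. A probe was counted as a member by its gene name, by an older name (VEGFR-2 for KDR, FLT-1 and VEGFR-1 for FLT1), or by a locus number that the RefSeq gene list assigns to KDR or TIE1. VEGFA had 2 probes for RefSeq transcript NM_001025110. KDR had 2 probes for an expressed sequence tag (EE796734) and 2 for the VEGFR-2 transcript AF513909. FLT1 had 5 probes for 3 transcripts, namely AF233077, AF534635 and AF513910, and the last is named VEGFR-1 in the files. TIE1 had 2 probes for the expressed sequence tag EE823787. Probes of the same transcript share their target and are not independent measurements of a gene.

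Total RNA was taken from the carotid arteries of 8 fetal sheep at gestation day 140, each sample hybridised to its own Cy3 array. The 4 hypoxia fetuses were carried by ewes taken to a mountain station at 3801 m on gestation day 30 and held there to day 135, a stay for which the sample titles give 110 days. Where they were kept between day 135 and sampling is not given in the sources used here, so the fetuses may have been sampled after the stay at altitude. The 4 normoxia fetuses were carried by ewes that stayed at the supplier's ranch at 300 m. Both groups were fed alfalfa pellets and lived in natural light and dark. Altitude was the only treatment the labels name, and no breed, allele or drug is given. The labels do not say whether the endothelium was kept during dissection, and they tell the fetuses of a group apart by a number alone. The p-values therefore cover the spread among these arrays, which may be partly technical.

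VEGFA is a secreted ligand that endothelial cells sense through KDR (VEGF receptor 2), the main signalling receptor for vessel growth and survival, and through FLT1 (VEGF receptor 1), which binds the ligand tightly and signals weakly. A soluble form of FLT1 captures the ligand outside the cell. TIE1 binds no VEGF and works beside TEK (TIE2), the receptor of the angiopoietins, which hold vessels stable. Low oxygen is a known inducer of VEGFA transcription, and all 3 kinases are marks of the endothelium that lines an artery.

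Levels are given as the log2 processed intensity minus the 75th percentile of the same array, so values below 0 lie under the brightness of the upper range of the array. They are compared within a probe. Only the differences between members and the sums of cell markers, given below, combine probes on each array. That percentile ran from 97.9 on hypoxia 1 to 1387 on normoxia 3, and the percent of probes well above background from 59.6 on normoxia 4 to 94.8 on hypoxia 3. Where a spot was too dim, the scanner software substituted a floor, whose median log2 level lay between -7.92 on hypoxia 3 and -4.85 on hypoxia 1, and values at that floor have no order. The arrays sat on 3 slides. Slide 1 carried hypoxia 1, 2 and 3 beside normoxia 1, slide 2 carried hypoxia 4 beside normoxia 2, and slide 3 carried the remaining normoxia arrays, 3 and 4. The smooth muscle genes CNN1 (calponin) and MYLK (myosin light chain kinase) were bright on every array, while the endothelial genes PECAM1, CDH5 and VWF were not analysed here. In bulk tissue, fewer cells of a type and less RNA per cell cannot be told apart.

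Of the 13 member probes, 9 were kept for the test, which took a signal well above background on 4 or more arrays, and 3 had one on all 8. No member passed. With limma, 0 of the 9 had a Benjamini-Hochberg adjusted p under 0.05, as did 0 of all 11207 kept probes (0%), and the smallest adjusted p was 0.998. One probe, A_70_P002716 of TIE1, had an unadjusted p under 0.05, against 3.69% of all kept probes (2.98% with hypoxia higher). That probe met the filter through 3 hypoxia arrays and 1 normoxia array. In 0 of the 9 were the groups without overlap, against 2.69% of all kept probes (1.72% with hypoxia higher). The log2 fold change, hypoxia minus normoxia, was above 0 in 7 and below 0 in 2 of the kept member probes, against 48.3% above 0 among all kept probes, but with normexp background correction 1 of the 9 was above 0, against 20.6% of all kept probes. Normexp moved the median log2 fold change of all kept probes to -0.31, so a member near that value under normexp lies at the centre of the array. It also left all 13 member probes between -0.50 and -0.40 on normoxia 4, where their levels were hardly told apart. In the main scaling the median log2 fold change of all kept probes was -0.02 and their median standard error 0.43.

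VEGFA was the one gene measured above background by every probe on every array. On probe A_70_P050921 the log2 level was -2.28, -3.95, -3.92 and -2.93 on normoxia 1 to 4. On hypoxia 1 to 4 it was -0.91, -2.59, -2.59 and -3.46. Hypoxia 1 lay above all normoxia arrays, hypoxia 2 and 3 lay above 3 of them, and hypoxia 4 lay above normoxia 2 and 3 only, so the groups overlapped. The means were -3.27 ± 0.81 (SD, n = 4) in normoxia and -2.39 ± 1.07 (SD, n = 4) in hypoxia. The log2 fold change was 0.88 (SE 0.62, 95% interval -0.54 to 2.30), a 1.84-fold higher mean with an exact two-sided permutation p of 0.2. Among all kept probes, 6.69% lay at least as far above 0.

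The second VEGFA probe, A_70_P050922, was at -1.80, -3.70, -4.40 and -3.36 on normoxia 1 to 4. It was at -1.04, -2.38, -3.90 and -3.73 on hypoxia 1 to 4. Its log2 fold change was 0.55 (SE 0.78, exact permutation p = 0.571), and the probes correlated across the 8 arrays with a Pearson r of 0.877, as a description. Replicates 1, 2 and 3 had a higher level in hypoxia on both probes, with pair differences of 1.33 to 1.38 on the first and 0.50 to 1.31 on the second. Replicate 4 was at -0.54 and -0.37. With normexp background correction both VEGFA probes were below 0, at -0.33 and -0.51, the first of them next to the median of all kept probes under that correction. Without hypoxia 1 they were at 0.39 and -0.02. The processed intensity of VEGFA was 5.54 to 9.71 times the error that the scanner software assigned to it.

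**Figure D1:**
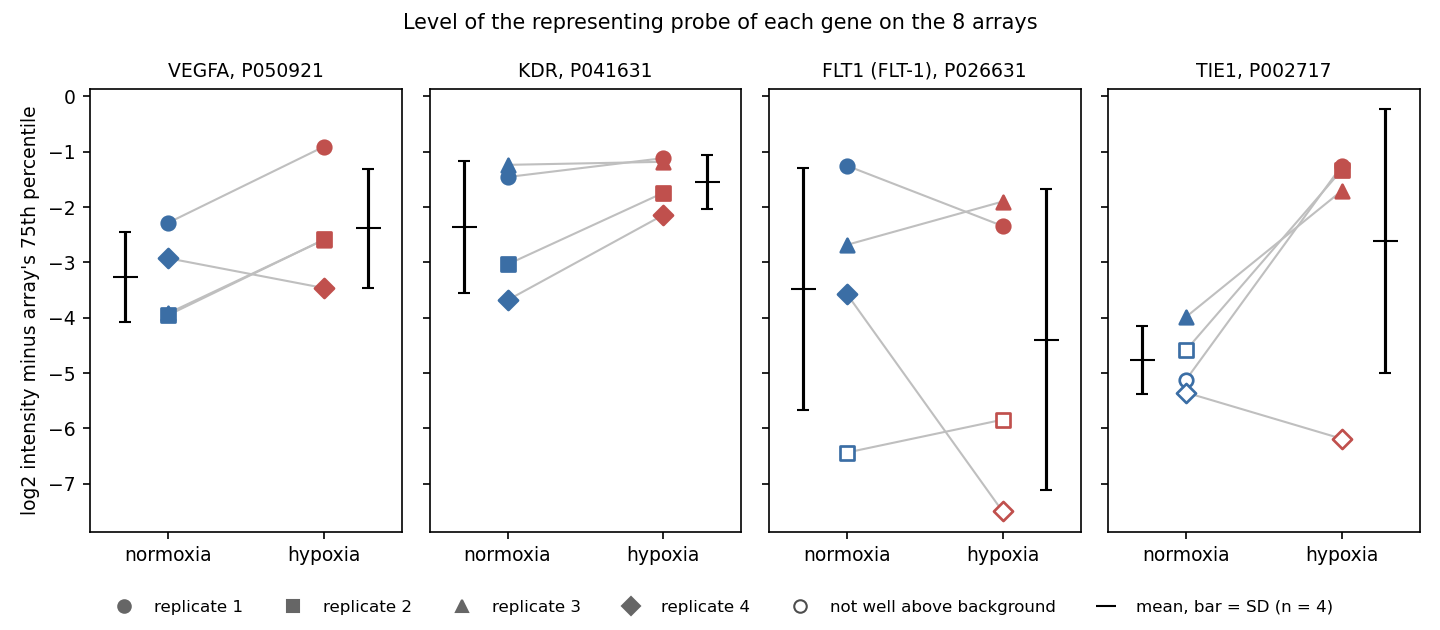
Log2 intensity minus each array's 75th percentile (y axis) for the probe that stands for each gene, on the 4 normoxia (blue) and 4 hypoxia (red) arrays, with lines joining arrays of the same replicate number, open symbols where the spot was not well above background, and black bars for the mean ± SD (n = 4). The groups overlap in all 4 panels, KDR is the one gene with 4 of 4 lines pointing up, and hypoxia 4 is the lowest hypoxia array in each panel, at -6.19 for TIE1.

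KDR was described by 2 pairs of probes that did not give the same picture. On the tag probe A_70_P041631, above background on all arrays, the log2 level was -1.46, -3.04, -1.24 and -3.68 on normoxia 1 to 4. On hypoxia 1 to 4 it was -1.12, -1.74, -1.18 and -2.14. Normoxia 1 and 3 lay among the hypoxia values, and normoxia 2 and 4 lay below all of them. The means were -2.35 ± 1.19 (SD, n = 4) in normoxia and -1.55 ± 0.49 (SD, n = 4) in hypoxia. The log2 fold change was 0.81 (SE 0.59, 95% interval -0.56 to 2.18), with an exact two-sided permutation p of 0.286. It changed sign to -0.32 with normexp, next to the median of -0.31 for all kept probes under that correction. Normoxia 4, the lowest array of this probe, became the highest normoxia array under normexp, at -0.42. In the main scaling the level was higher in hypoxia in 4 of 4 pairs, as it was for 13.8% of all kept probes. The pair differences were 0.34, 1.29, 0.06 and 1.54, so replicates 2 and 4 carried most of the mean.

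The other tag probe of KDR, A_70_P041632, followed the first closely, with a Pearson r of 0.997 over the 8 arrays. It was at -2.55, -5.32, -2.38 and -6.07 on normoxia 1 to 4 and at -2.16, -3.15, -1.99 and -3.75 on hypoxia 1 to 4. Its spot was measured well above background on all 4 hypoxia but only 2 normoxia arrays, and on normoxia 4 its value was the substituted floor. Its log2 fold change of 1.32 (SE 0.92, exact permutation p = 0.286) changed sign to -0.50 with normexp. With every value below -4.85 raised to that common floor, as an alternative added after the data were seen, it was at 0.89.

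The VEGFR-2 probes of KDR were well above background on replicates 1 and 3 of each group and on neither group's replicates 2 and 4. Probe A_70_P026596 was at -0.92, -6.0, -2.67 and -4.22 on normoxia 1 to 4 and at -1.41, -5.37, -1.61 and -7.77 on hypoxia 1 to 4. Probe A_70_P026597 was at -2.0, -6.75, -4.06 and -6.07 on normoxia and at -2.53, -5.35, -3.56 and -6.07 on hypoxia. These values divide by replicate number rather than by group, over a span that exceeds any difference between the group means. The log2 fold changes were -0.59 (SE 1.65, exact permutation p = 0.771) and 0.34 (SE 1.18, exact permutation p = 0.8). The first was above 0, at 0.26 without normoxia 1 and 0.65 without hypoxia 4, and the second was below 0 without normoxia 2, normoxia 4 or hypoxia 1, at -0.34, -0.11 and -0.27. With values raised to the common floor they were at -0.0156 and -0.0100. Across the 2 transcripts the KDR probes correlated with a Pearson r of 0.573 to 0.804 over the 8 arrays, against 0.898 within the VEGFR-2 pair. Which transcript forms of KDR the tag and the VEGFR-2 probes detect is not given in the sources used here.

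**Figure D2:**
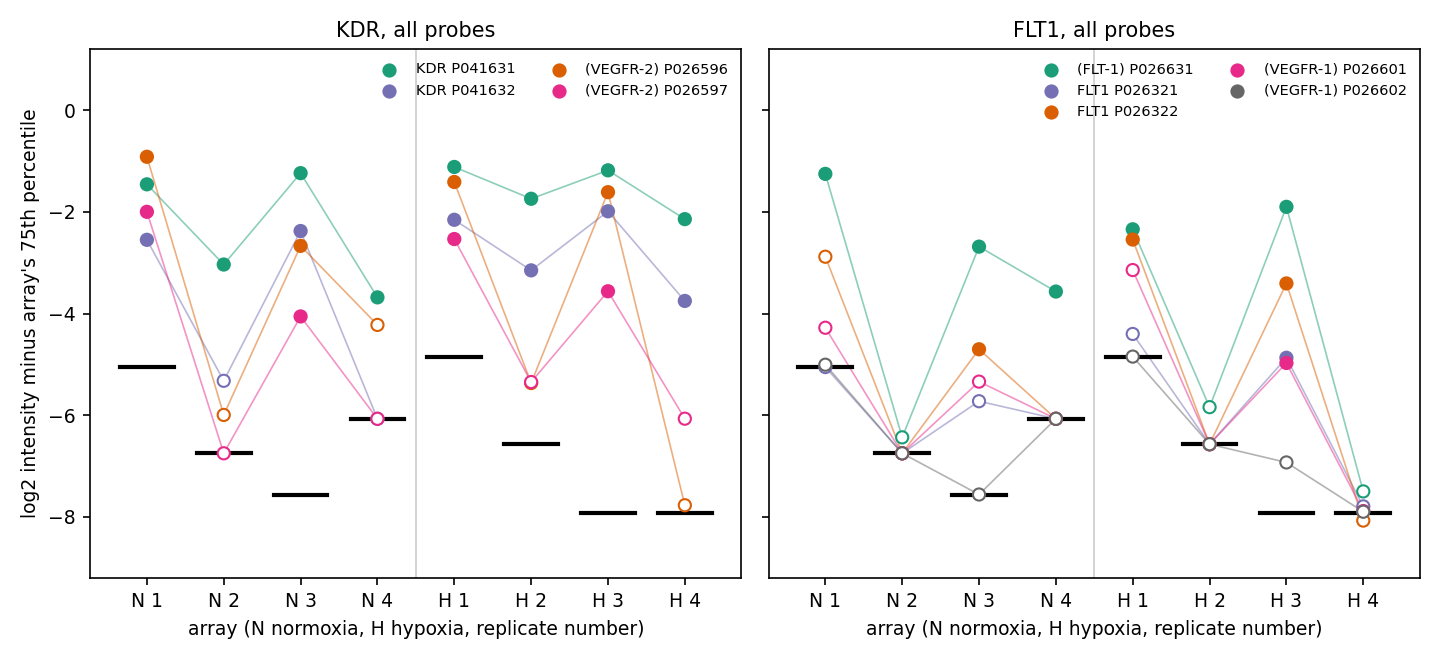
Log2 intensity minus each array's 75th percentile (y axis) for all 4 KDR probes (left) and all 5 FLT1 probes (right) on each array (x axis, N for normoxia and H for hypoxia), with filled symbols where the spot was well above background and a black bar at the median substituted floor of the array. The tag probe A_70_P041631 is filled on all 8 arrays, the VEGFR-2 probes are filled on replicates 1 and 3 of each group, and most FLT1 symbols are open.

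FLT1 was near the limit of detection. Of its 5 probes, only A_70_P026631, named FLT-1, was kept, having 5 arrays well above background, 3 of normoxia and 2 of hypoxia. Its log2 level was -1.25, -6.44, -2.68 and -3.57 on normoxia 1 to 4. On hypoxia 1 to 4 it was -2.34, -5.84, -1.90 and -7.50. Replicates 1 and 3 of each group were the bright arrays together with normoxia 4, and the groups overlapped over nearly their whole range. The log2 fold change was -0.91 (SE 1.53, 95% interval -4.44 to 2.62), with an exact two-sided permutation p of 0.657 and a lower level in hypoxia in 2 of 4 pairs. It was 0.12 without hypoxia 4 and -0.40 with values raised to the common floor.

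The 4 other FLT1 probes gave 32 values, of which 5 were well above background and 20 were the substituted floor. Probe A_70_P026322 was above background on normoxia 3 at -4.70 and on hypoxia 1 and 3 at -2.54 and -3.41. Probe A_70_P026321 was above it on hypoxia 3 alone, at -4.87. Of the VEGFR-1 probes, A_70_P026601 was above it on hypoxia 3 alone, at -4.97, and A_70_P026602 on no array. Hypoxia 3, with the largest percent of probes above background, thus gave the one measured value of both A_70_P026321 and A_70_P026601. No fold is given for these probes, since they missed the filter of 4 arrays well above background, with at most 2 such arrays in a group. No difference in FLT1 was detected at these intensities. The 95% interval of A_70_P026631 spans from a 0.0461-fold to a 6.13-fold mean, so it does not show that the groups were alike.

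TIE1 had the largest difference among the members, and it rested on 3 of the 4 hypoxia arrays. On probe A_70_P002717 the log2 level was -5.12, -4.59, -3.99 and -5.35 on normoxia 1 to 4. On hypoxia 1 to 4 it was -1.25, -1.33, -1.71 and -6.19. Hypoxia 1, 2 and 3 lay above every normoxia array, while hypoxia 4 lay below every one. Hypoxia 4 and normoxia 1, 2 and 4 were not well above background, so their order is not resolved. The spot was well above background on those 3 hypoxia arrays and on normoxia 3, and on normoxia 1 the value was the substituted floor. The means were -4.76 ± 0.61 (SD, n = 4) in normoxia and -2.62 ± 2.39 (SD, n = 4) in hypoxia. The log2 fold change was 2.14 (SE 1.09, 95% interval -0.37 to 4.65), with an exact two-sided permutation p of 0.143, where the smallest that 4 against 4 arrays allow is 0.0286.

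Probe A_70_P002716 of TIE1 showed the same division of arrays. It was at -5.01, -5.32, -4.85 and -6.07 on normoxia 1 to 4, with normoxia 1 and 4 at the substituted floor, and at -1.87, -1.35, -2.20 and -6.13 on hypoxia 1 to 4. The log2 fold change was 2.42 (SE 1.00, 95% interval 0.12 to 4.73, exact permutation p = 0.143). Its unadjusted limma p was 0.0415, the adjusted p was 0.998, and 0.0625% of all kept probes, 7 in number, lay at least as far above 0. Both TIE1 probes met the filter of 4 arrays through 3 hypoxia arrays, where they were high, and 1 normoxia array. The members were also chosen with earlier results of these data known. That p, interval and share are therefore a description and no support for a difference. The TIE1 probes correlated with a Pearson r of 0.980 over the 8 arrays. Without hypoxia 4 the log2 fold changes were 3.33 on A_70_P002717 and 3.50 on A_70_P002716, each with a limma adjusted p of 0.348. With values raised to the common floor both were 2.28. With normexp they were 0.05 and -0.06, on a scale where all 13 member probes lay between -0.05 and -0.02 on hypoxia 1 and between -0.50 and -0.40 on normoxia 4.

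**Figure D3:**
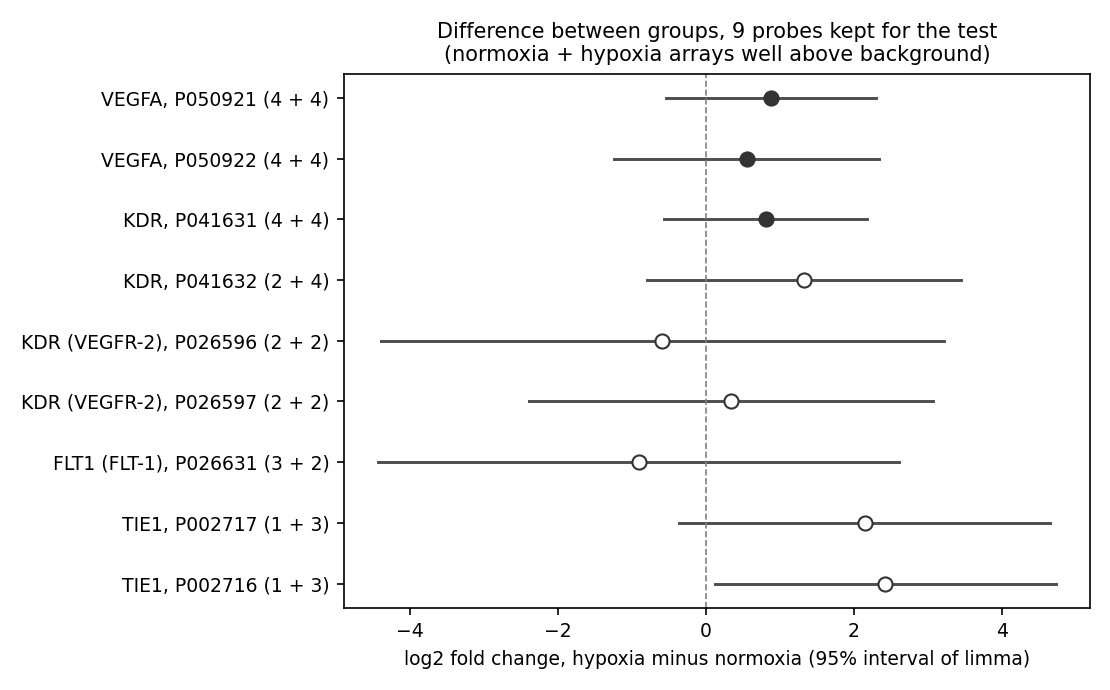
Log2 fold change, hypoxia minus normoxia (x axis), of the 9 kept member probes, with the 95% interval of limma as a line, filled symbols for probes well above background on all 8 arrays and, in brackets, the number of normoxia and hypoxia arrays above it. Every interval includes 0 except that of A_70_P002716 of TIE1, from 0.12 to 4.73, whose adjusted p was 0.998 and whose log2 fold change was -0.06 with normexp. That probe met the filter through 3 hypoxia arrays and 1 normoxia array.

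Slides 1 and 2 hold both groups, and the members were compared within each. Within slide 1, 3 hypoxia arrays stand against 1 normoxia array, and within slide 2, 1 against 1, so these are values with no test. For VEGFA the log2 fold change was 0.26 and 0.49 on A_70_P050921 and -0.65 and -0.03 on A_70_P050922, in slides 1 and 2. For KDR it was 0.11 and 0.89 on A_70_P041631 and 0.12 and 1.57 on A_70_P041632. The VEGFR-2 probes of KDR gave -1.88 and -1.78 on A_70_P026596 and -1.82 and 0.68 on A_70_P026597. FLT1 was at -2.11 and -1.06 on A_70_P026631. TIE1 went from 3.69 in slide 1 to -1.60 in slide 2 on A_70_P002717 and from 3.20 to -0.81 on A_70_P002716, and the array of slide 2 in the hypoxia group is hypoxia 4. Neither array of slide 2 was well above background for the TIE1 probes, the VEGFR-2 probes or A_70_P026631 of FLT1. Their slide 2 values thus compare dim spots, with no resolved order. In slide 1 the normoxia array was at the substituted floor for both TIE1 probes.

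With slide as a block, VEGFA was at 0.35 and -0.40 on A_70_P050921 and A_70_P050922. KDR ran from -1.84 on A_70_P026596 to 0.70 on A_70_P041632, FLT1 was at -1.69, and TIE1 was at 1.57 and 1.60. These blocked values are weighted means of the within-slide ones, because slide 3 held normoxia arrays only, and they include the same dim spots. VEGFA and both KDR tag probes were thus closer to 0 with the slide as a block than over all arrays. Of these, A_70_P050922 of VEGFA changed sign, from 0.55 to -0.40, so the VEGFA probes differed in sign. The part that the slide or hypoxia 4 has in the TIE1 difference was not tested.

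**Figure D4:**
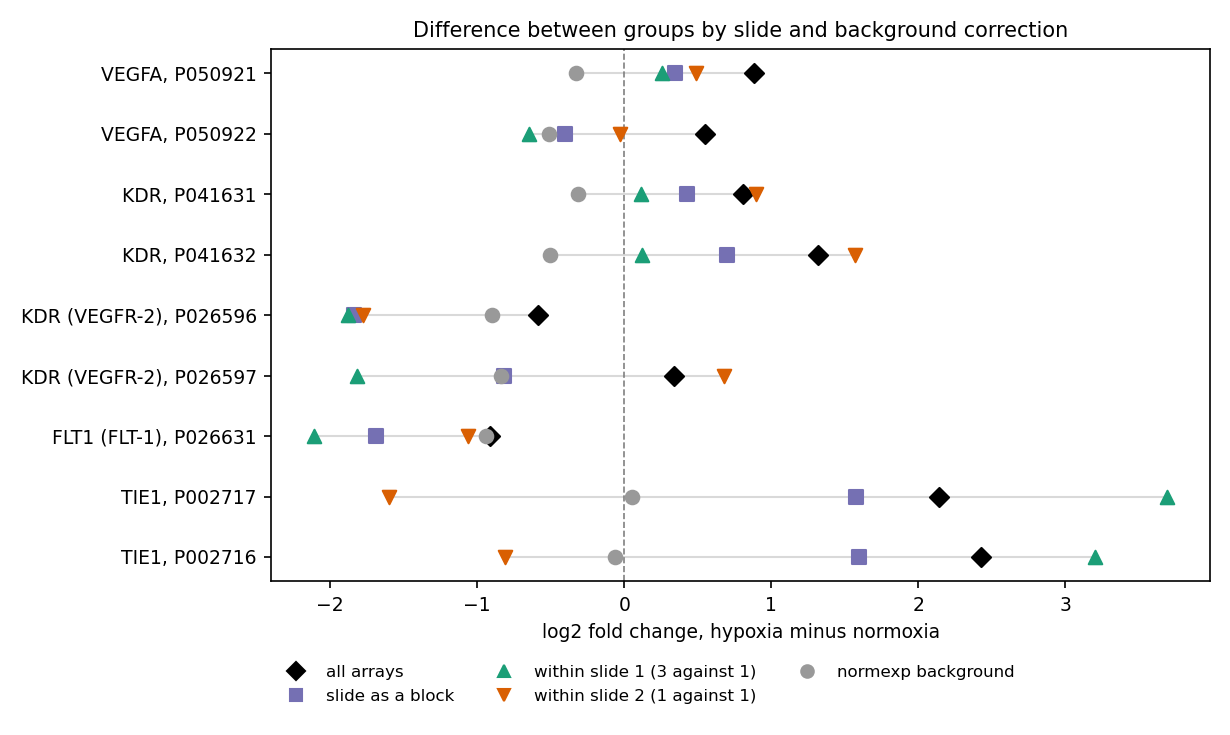
Log2 fold change, hypoxia minus normoxia (x axis), of the 9 kept member probes over all arrays (black diamonds), with slide as a block (squares), within slide 1 (upward triangles), within slide 2 (downward triangles) and with normexp background correction (grey circles). TIE1 spans from -1.60 within slide 2 to 3.69 within slide 1 on A_70_P002717, while FLT1 is below 0 in all 5 values. The slide 2 values of TIE1 and FLT1 compare spots that were not well above background, and FLT1 was at 0.12 without hypoxia 4.

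Changes of one member relative to another were compared by the difference of their log2 levels on each array. Over 7 such comparisons the smallest exact two-sided permutation p was 0.114, with a Benjamini-Hochberg adjusted p of 0.44. It belonged to FLT1 relative to TIE1, with a mean difference of -3.05 on the log2 scale. Only 3 arrays, normoxia 3 and hypoxia 1 and 3, had both of these spots well above background and 2 had neither, so this difference rests largely on values near the floor. VEGFA relative to KDR differed by 0.08 between the groups (exact permutation p = 0.971). VEGFA relative to FLT1 was higher in hypoxia in 4 of 4 pairs, by a mean of 1.79 (exact permutation p = 0.229). In replicate 2 the FLT1 spots were dim, at -6.44 in normoxia and -5.84 in hypoxia, as was that of hypoxia 4, at -7.50. The VEGFA to FLT1 differences of replicates 2 and 4 thus rest partly on values near the floor. The VEGFR-1 probes relative to the other FLT1 probes differed by 0.20 (exact permutation p = 0.8), on values mostly at or near the floor. Across the 8 arrays, the representing probes of the 4 genes correlated with each other with a Pearson r of 0.301 to 0.581, as a description over arrays that share slides.

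The other VEGF genes were sparse on the array. Of 5 VEGF ligands, 2 had a kept probe and 0 passed, with a log2 fold change above 0 for VEGFA and below 0 for PGF, but below 0 for both with normexp. PGF, the placental growth factor and a ligand of FLT1, was at -0.29 (SE 1.48) on A_70_P026692 and at 1.25 on a second probe that was not kept. Of 5 VEGF receptors and co-receptors, 4 had a kept probe and 0 passed, with 1 above 0 and 3 below 0, a median of -0.52 and, with normexp, 4 below 0. NRP1, a neuropilin that presents VEGFA to KDR, was well above background on all arrays and had -0.12 (SE 0.43). NRP2, the neuropilin of veins and lymphatic vessels, had -1.05 (SE 1.55) and was above background on 3 normoxia and 2 hypoxia arrays. Its log2 level was -1.02, -5.57, -3.14 and -3.27 on normoxia 1 to 4 and -1.75, -6.57, -1.66 and -7.23 on hypoxia 1 to 4, an order of arrays close to that of FLT1.

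Of the 6 genes of the angiopoietin and TIE system, 4 had a kept probe and 0 passed, with 3 above 0 and 1 below 0 and a median log2 fold change of 0.53, but with 1 above 0 under normexp and 2 with slide as a block. TEK, the angiopoietin receptor that pairs with TIE1, was at -2.49, -6.53, -3.76 and -6.07 on normoxia 1 to 4. On hypoxia 1 to 4 it was at -2.59, -3.55, -3.06 and -7.36. Its log2 fold change was 0.57 (SE 1.28) with 2 arrays of each group above background, and it was below 0, at -0.68, with slide as a block and at -0.73 with normexp. The other TEK probes were at 0.45 on A_70_P002711 and at -0.66 on A_70_P049686, which was not kept. As with TIE1, the TEK spot was not well above background on hypoxia 4, but on normoxia 1 it stood at the hypoxia level, where TIE1 was at the floor. ANGPT2, the angiopoietin that loosens vessels, had 0.48 (SE 0.60) on A_70_P049681 (-0.27 with normexp), with 0.32, 0.52 and 0.48 on its other probes. ANGPT1, the stabilising ligand, had -0.57 (SE 1.64) with 2 arrays of each group above background.

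Among 45 genes of signalling below the receptors, 5 had a kept probe and 0 passed, with 4 above 0 and 1 below 0 in the main scaling and with normexp, and a median log2 fold change of 0.74. RAC1, a small GTPase of cell movement, was at 1.16 ± 0.62 (SD, n = 4) in normoxia and 2.15 ± 0.31 (SD, n = 4) in hypoxia, at a log2 fold change of 0.99 (SE 0.36). HSP90AA1, a chaperone that binds NOS3, had 0.74 (SE 0.38). NOS3, the endothelial nitric oxide synthase activated by VEGFA, had 1.12 (SE 0.57) and was higher in 4 of 4 pairs. Its log2 level was -0.70, -1.56, -1.24 and -2.50 on normoxia 1 to 4 and -0.11, 0.54, -0.16 and -1.78 on hypoxia 1 to 4. As with TIE1, hypoxia 1, 2 and 3 lay above every normoxia array and hypoxia 4 did not. Within slides 1 and 2 NOS3 was at 0.79 and -0.22. Of 22 endothelial transcription factors only ETS2 had a kept probe, at 0.76 (SE 0.30). Its groups did not overlap, as was so for 1.72% of all kept probes in that direction, and within slides 1 and 2 it was at 1.27 and 0.03.

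**Figure D5:**
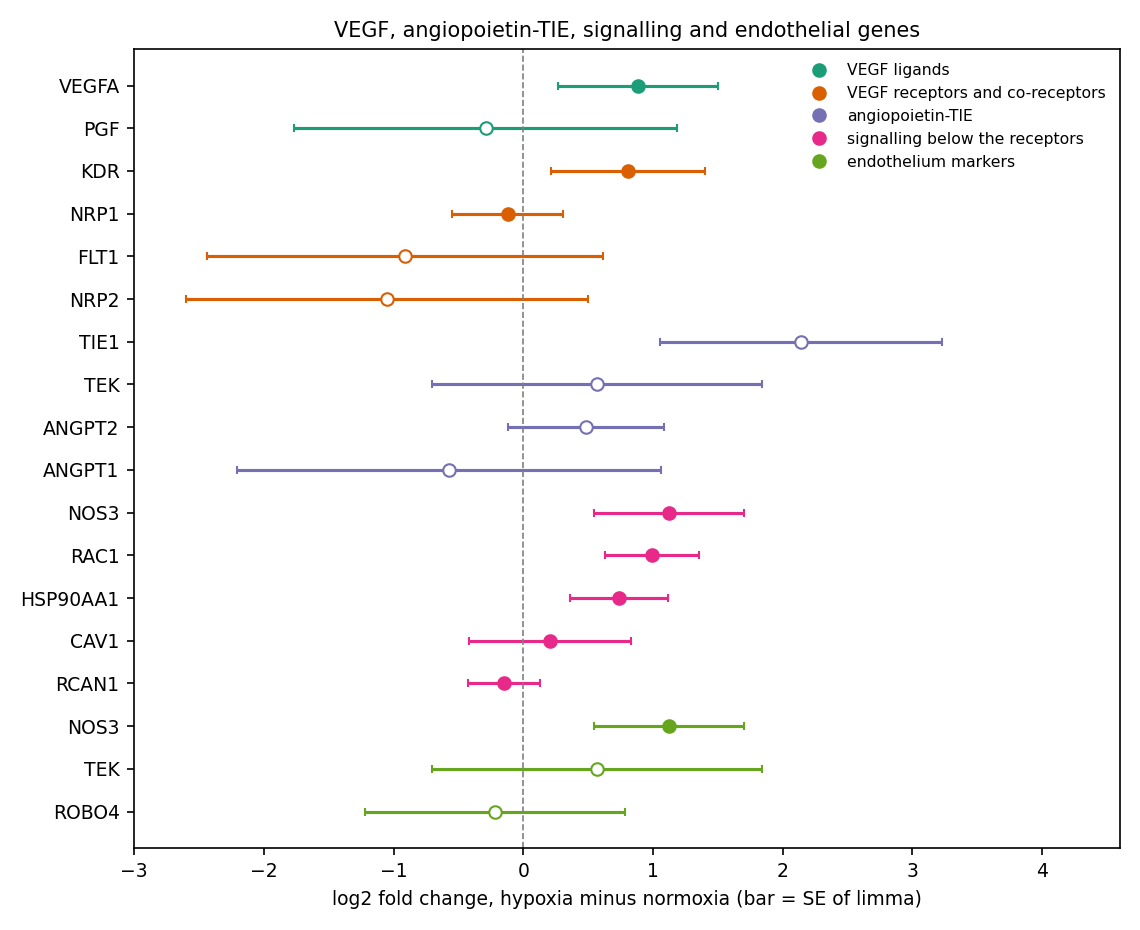
Log2 fold change, hypoxia minus normoxia (x axis, bar = SE of limma), of every gene with a kept probe in 5 lists (colours), with filled symbols where the representing probe was well above background on all 8 arrays. The SE of the genes with open symbols runs up to 1.64 for ANGPT1, TIE1 stands at 2.14 (0.05 with normexp), and none of these genes passed the test.

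Endothelial markers beside the members were few. Of 13 listed genes, NOS3, TEK and ROBO4, a guidance receptor of endothelium, had a kept probe, with 2 above 0 and 1 below 0, but 1 above 0 when slide was a block and also with normexp. ROBO4 had -0.22 (SE 1.00). Their summed level, on the log2 scale, ran from -1.69 to 0.45 in normoxia and from -1.53 to 0.67 in hypoxia. By array it was 0.45, -1.28, -0.52 and -1.69 on normoxia 1 to 4 and 0.59, 0.67, 0.55 and -1.53 on hypoxia 1 to 4. Hypoxia 4, where the representing probes of TIE1, KDR, FLT1 and VEGFA had their lowest hypoxia value, also had the lowest endothelial sum of its group. On the other VEGFA probe the lowest hypoxia array was hypoxia 3. The sum adds linear levels, and NOS3 gave the largest part of it on every array. On hypoxia 2 and 4 NOS3 was at 0.54 and -1.78, TEK at -3.55 and -7.36, and ROBO4 at -4.34 on both. The part of endothelial content in the member values was not tested.

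No marker of the other cells of the wall passed the test. Both kept smooth muscle markers of 10 listed, CNN1 at -0.62 (SE 0.77) and MYLK at -0.60 (SE 0.66), were below 0, at a median of -0.61, although MYLK was at 0.11 with slide as a block. Their summed level ran from 7.49 to 9.20 in normoxia and from 5.53 to 8.79 in hypoxia, with the lowest value on hypoxia 1. All 5 kept leukocyte markers of 10 listed were below 0 on their representing probes, at a median of -0.21, with 1 of 5 above 0 under quantile and cyclic loess scaling. CD14, among the 5, was at -0.08 on that probe and at 0.08 on its other kept probe. FCER1G, an Fc receptor subunit, had -0.72 (SE 0.27) with no overlap between groups, against 0.964% of all kept probes in that direction. The other FCER1G probe was at -0.36. CD3E, of the T cell receptor complex, had -0.70 (SE 0.72), and TYROBP, a signalling adaptor of myeloid cells, -0.21 (SE 0.41). The sum of the leukocyte markers ran from 0.91 to 1.47 in normoxia and from 0.12 to 1.31 in hypoxia. Of 6 adventitial fibroblast markers 3 were kept, at a median of 0.96 (-0.14 with normexp). COL3A1, a fibrillar collagen chain, had 1.80 (SE 0.81) on A_70_P006991 and was higher in 4 of 4 pairs, but its other kept probes were at 0.53 and 0.54. COL1A1, another such chain, had 0.96 (SE 0.53), and DCN, the proteoglycan decorin, had -0.15 (SE 0.75). Their sum ran from 4.59 to 6.09 in normoxia and from 4.55 to 7.46 in hypoxia. Both kept erythroid markers of 6 listed were above 0, at a median of 0.26, but 1 of them under quantile, median and cyclic loess scaling and with normexp (median -0.19), and 0 with slide as a block (median -0.21). HBB, a beta-globin, had 0.36 (SE 0.50) and AHSP, which stabilises alpha-globin, 0.16 (SE 1.27). The sum ran from -1.0 to 1.03 in normoxia and -0.31 to 0.95 in hypoxia. The part of these cells in the member values was not tested.

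Among 48 other angiogenic factors and inhibitors, 21 had a probe and 19 a kept one, with 11 above 0, 8 below 0, 0 passing and a median log2 fold change of 0.06, next to -0.02 for all kept probes. With median scaling 6 of the 19 were above 0, with cyclic loess 7, with slide as a block 6 and with normexp 4. MMP2, a gelatinase that opens the basement membrane, had 0.84 (SE 0.51) and was higher in 4 of 4 pairs. TIMP1, an inhibitor of such proteases, had -0.60 (SE 0.39) and was lower in 4 of 4 pairs, as were 10.5% of all kept probes. FGF1, a fibroblast growth factor, had -0.53 (SE 0.54).

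The genes whose levels followed each member most closely over the 8 arrays were taken from 515 named genes by Pearson correlation with the representing probe. VEGFA was most like GHR (r = 0.910), the growth hormone receptor, JUNB (0.879), an immediate early transcription factor, and AANAT (0.864), an enzyme of melatonin synthesis. KDR was most like CLMP (0.946), an adhesion molecule, CLDN1 (0.923), a tight junction protein, and SMAD4 (0.922), a mediator of TGF-beta signalling. TIE1 was most like CLDN4 (0.903), another tight junction protein, GJA4 (0.867), the arterial endothelial connexin, and CAPN1 (0.863), a calcium-dependent protease. FLT1 was most like UCP1 (0.995), the uncoupling protein of brown fat, AQP5 (0.993), a water channel of glands, and OXTR (0.992), the oxytocin receptor. For FLT1, 33.2% of the 515 genes had an r above 0.8, against 3.30% for VEGFA, 6.21% for KDR and 1.94% for TIE1.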

How the data were processed

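The authors deposited linear spot intensity for each array, extracted by Agilent Feature Extraction 9.5.3.1 (protocol GE1-v5_95_Feb07, array design 019921), per the file headers. The processed intensity is background-subtracted and detrended by that software, and a deposited p-value per spot tests it against background, per the file headers. The authors' deposited table of the series gives a ratio. Its values match processed intensity divided by the array's 75th percentile, except that low values stand at a floor on some arrays. That floor held 24.2% of the values on normoxia 2 and 24.6% on hypoxia 4. The deposited table served as an alternative, in which A_70_P026596 of KDR was at -0.31, against -0.59 in the main scaling.

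Each array has 15744 spots. The 536 controls and any outlier-flagged spots were dropped from the 15008 probes. Log2 intensity was averaged over a probe's spots and centred on the array's 75th percentile. Probes well above background on at least 4 of 8 arrays with a value on all 8 were kept (11207). The groups were compared by limma 3.58.1 (lmFit, eBayes) in R 4.3.3, with Benjamini-Hochberg adjustment over all kept probes and a threshold of 0.05. Exact permutation tests used the 70 assignments of 4 against 4 arrays and are two-sided. The procedure was tested on simulated data with independent arrays and no slide effect, pairing or floor, so that test does not cover these features of the data. The number of arrays limits the precision.

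Names came from the files, with older names and locus numbers matched to RefSeq (assembly ARS-UI_Ramb_v3.0, used for names only). Of 15008 probes 1166 were named. For a gene with several kept probes, the one with the highest mean represents it. Named were all member probes, all kept genes of the VEGF and angiopoietin lists, and in each other list the 3 genes of smallest p. FLT1, KDR, VEGFA and TIE1 and the 11 lists were chosen with earlier results of these data known. The labels give the groups the same replicate numbers. Arrays of one number deviated together from their group means, with correlations over probes of 0.820, 0.726, 0.584 and 0.434 for numbers 1 to 4. They were therefore treated as pairs, on the values alone, as no label states what same-numbered fetuses have in common. Arrays of different numbers were also alike, with 0.800 for normoxia 2 and hypoxia 4, of one slide, which exceeds 0.726 for number 2, and 0.578 for normoxia 1 and hypoxia 3.

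Alternatives were quantile, median and cyclic loess scaling, normexp (offset 50), 2 other filters, outlier spots kept, 1 probe per gene, the replicate block, slide, array weights, the authors' table and leaving out each array. A normexp offset of 1 and a common floor were added after the data were seen.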

Additional observations from a re-analysis of the deposited data

Results flagged for a closer look

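Among 26 groups of 4 arrays checked, 2 for each member probe, one array stood apart from the others of its group. TIE1 on probe A_70_P002717 was at a log2 level of -6.19 on hypoxia 4, against -1.71 to -1.25 on the other hypoxia arrays, and the gap was 0.908 of the range of the group. This criterion marks about 1 in 20 groups by chance. The other TIE1 probe was at -6.13 on hypoxia 4.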

How the results depend on the processing

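No probe passed under any of 22 alternatives, with a smallest limma adjusted p of 0.153 (array weights). The count at an unadjusted p under 0.05, 413, became 1338 with the replicate block, 1365 with array weights, 24 with normexp, 21 with normexp at offset 1, 199 with slide as a block, 138 with median scaling and 174 to 616 without 1 array. With the replicate block the smallest adjusted p was 0.316, and for the representing probes it was 0.442 for VEGFA, 0.419 for KDR, 0.648 for FLT1 and 0.398 for TIE1, so the pairing changed no call. Of 205 member values under alternatives, 179 kept their sign and, where tested, their side of the threshold, and 26 changed sign. The other filters, 1 probe per gene and the replicate block cannot change a fold change, so the count of 179 does not measure robustness. The within-slide values have no test and no side of the threshold. With normexp, VEGFA was at -0.33 and -0.51, KDR at -0.32 and -0.50 on the tag probes and -0.84 on A_70_P026597, and TIE1 at -0.0618 on A_70_P002716. With normexp at offset 1 (added) VEGFA was at -0.35 and -0.61, and KDR at -0.34, -0.61 and -1.23. With slide as a block, A_70_P050922 of VEGFA was at -0.40 and A_70_P026597 of KDR at -0.82, and the latter was at -0.0100 with the common floor (added). Within slide 1 these were at -0.65 and -1.82, and within slide 2 A_70_P050922 was at -0.0321 and TIE1 at -0.81 and -1.60. Without 1 array, VEGFA ran from 0.39 to 1.24 and -0.0238 to 1.06, KDR from 0.36 to 1.18, 0.65 to 1.89, -1.47 to 0.65 and -0.34 to 1.25, FLT1 from -1.89 to 0.12, and TIE1 from 1.69 to 3.33 and 1.91 to 3.50. The median of all kept probes was -0.20 with median scaling, -0.10 with slide as a block and -0.31 with normexp. Signal near background limits FLT1, the VEGFR-2 probes of KDR, and TIE1 in normoxia and on hypoxia 4.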
